A study of Oryza sativa Indica Group with 12 samples.

Results

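The genes described here are 5 rice genes tied to the hormone abscisic acid (ABA): OsASR1, OsASR3, LOC_Os12g29400, OsDHN1 and SalT. OsASR1, OsASR3 and LOC_Os12g29400 were taken by their probe sets, OsDHN1 and SalT by their symbols, which gave 8 probe sets of the 57258 tested, on which 17905 genes are named by a single-gene annotation. Root RNA of the indica cultivars BR-IRGA 409, susceptible to Fe toxicity, and EPAGRI 108, tolerant to it, was hybridised to 12 GeneChip Rice Genome arrays, with 3 biological replicates in each of 4 groups. The groups were BR-IRGA 409 with excess Fe, BR-IRGA 409 control, EPAGRI 108 with excess Fe and EPAGRI 108 control. Plants grew in nutrient solution, and the excess Fe groups received 500 mg/L Fe and the control groups 6.5 mg/L for 3 days, both supplied as FeSO4, with the sulfate of the control solution made up by Na2SO4. Each cultivar is a single genotype, and whether a replicate pooled plants was not stated in the sources used here. The study asked how roots of a susceptible and of a tolerant cultivar respond to excess Fe.

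ABA is the hormone that plants make under drought, salt and cold. Its receptors (PYL) hold back protein phosphatases of clade A (PP2C), which frees SnRK2 kinases (SAPK in rice) to activate bZIP factors, and these turn on the genes of protective proteins. ASR proteins (abscisic acid, stress and ripening) are small, very hydrophilic proteins of this response, and dehydrins and other late embryogenesis abundant (LEA) proteins are further classes of it. SalT encodes a mannose-binding lectin of the jacalin-related family that is known as a salt-induced protein of rice roots and sheaths. LOC_Os12g29400 is described in the study's tables as an ABA-responsive protein, with a GRAM domain, a fold that binds membrane lipids in other proteins.

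Values are log2 levels after the authors' RMA normalization, where 1 unit is a doubling, and levels of different probe sets cannot be set against each other. A probe set was called changed at a limma adjusted p under 0.05, over all probe sets, and at least 3-fold. The brightest control probe sets with no target in rice lay between 4.51 and 5.01 on an array, and this is taken below as the background level. Of 8 root markers, 8 were above it on all control arrays of each cultivar and 7 on all excess Fe arrays, and the silicon transporter gene Lsi1 ranged from 13.35 to 13.78. None of the 8 was called, although 4 had an adjusted p under 0.05 in BR-IRGA 409, where the list's median was -0.61. EPAGRI 108 control replicate 1 stood apart, at least 1 unit above the next array of its group for 1.66% of all probe sets, and results that rest on it are given with and without it. Genes of Fe status moved with the label in BR-IRGA 409, where 7 of 7 were called. OsVIT2, a vacuolar Fe transporter, averaged 13.41 ± 0.15 in excess Fe and 8.82 ± 0.48 in control (SD, n = 3 each). In EPAGRI 108 the same gene averaged 13.04 ± 0.22 in excess Fe and 12.17 ± 0.37 in control. EPAGRI 108 directions follow the array labels and run opposite to those in the study's own tables. Of the 7 Fe status genes, 3 had a limma adjusted p under 0.05 in EPAGRI 108, beside 0.992% of all probe sets. The signs of these 3 matched those in BR-IRGA 409. IRT1, an Fe uptake transporter gene, averaged 7.23 ± 1.75 in excess Fe and 10.09 ± 0.16 in control and was called lower (adjusted p = 0.0479). The ferritin genes OsFER1 and OsFER2 were 0.82 and 0.95 units higher (adjusted p = 0.0392 each), under 3-fold. Whether their probe sets read these genes apart was not tested. Results in EPAGRI 108 are therefore those of arrays so labelled.

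In BR-IRGA 409 roots, 3 of the 5 genes were higher with excess Fe, namely OsASR1, OsASR3 and LOC_Os12g29400, and OsDHN1 and SalT were not called. Over all probe sets, 1.1% were called higher and 0.25% lower in this comparison. The study had picked these 3 genes by their change on the same arrays, and their direction is no independent evidence. On the arrays labelled EPAGRI 108, 1 of the 5 was called higher (OsASR3), against 0.283% of all probe sets called higher and 0.0227% lower. The study lists OsASR3 as changed in this cultivar too, so this call is likewise no independent evidence. The difference of the 2 responses, BR-IRGA 409 minus EPAGRI 108, was called for 2 of the 5, both positive, where 0.0856% of all probe sets were called positive and 0.0541% negative. These 2, OsASR1 and LOC_Os12g29400, were among the 3 genes picked above. Such a choice favours a positive difference, and the count is no independent evidence. By the brightest probe set of each gene, excess Fe arrays all lay above control arrays for 5 of the 5 genes in BR-IRGA 409. The same held for 11.1% of all probe sets, while 13.1% lay wholly below. By its other probe sets OsDHN1 overlapped between these groups. In EPAGRI 108 excess Fe arrays lay wholly above control arrays for 4 of the 5, all but OsDHN1. This was so for 6.34% of all probe sets, with 7.07% wholly below. Between cultivars in excess Fe, BR-IRGA 409 lay wholly above EPAGRI 108 for OsASR3, LOC_Os12g29400 and SalT (8.03% of all probe sets) and wholly below for 0 of the 5 (8.33%). In control it lay wholly above for SalT (7.69%) and wholly below for OsASR1, LOC_Os12g29400 and OsDHN1 (6.97%). By its second brightest probe set OsDHN1 overlapped between the controls. The genes picked by their rise in BR-IRGA 409 are favoured to be high there with excess Fe and low in control. Their part in these counts between cultivars is therefore no independent evidence. Fewer cells of a type and less RNA per cell cannot be told apart in whole roots.

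**Figure D1:**
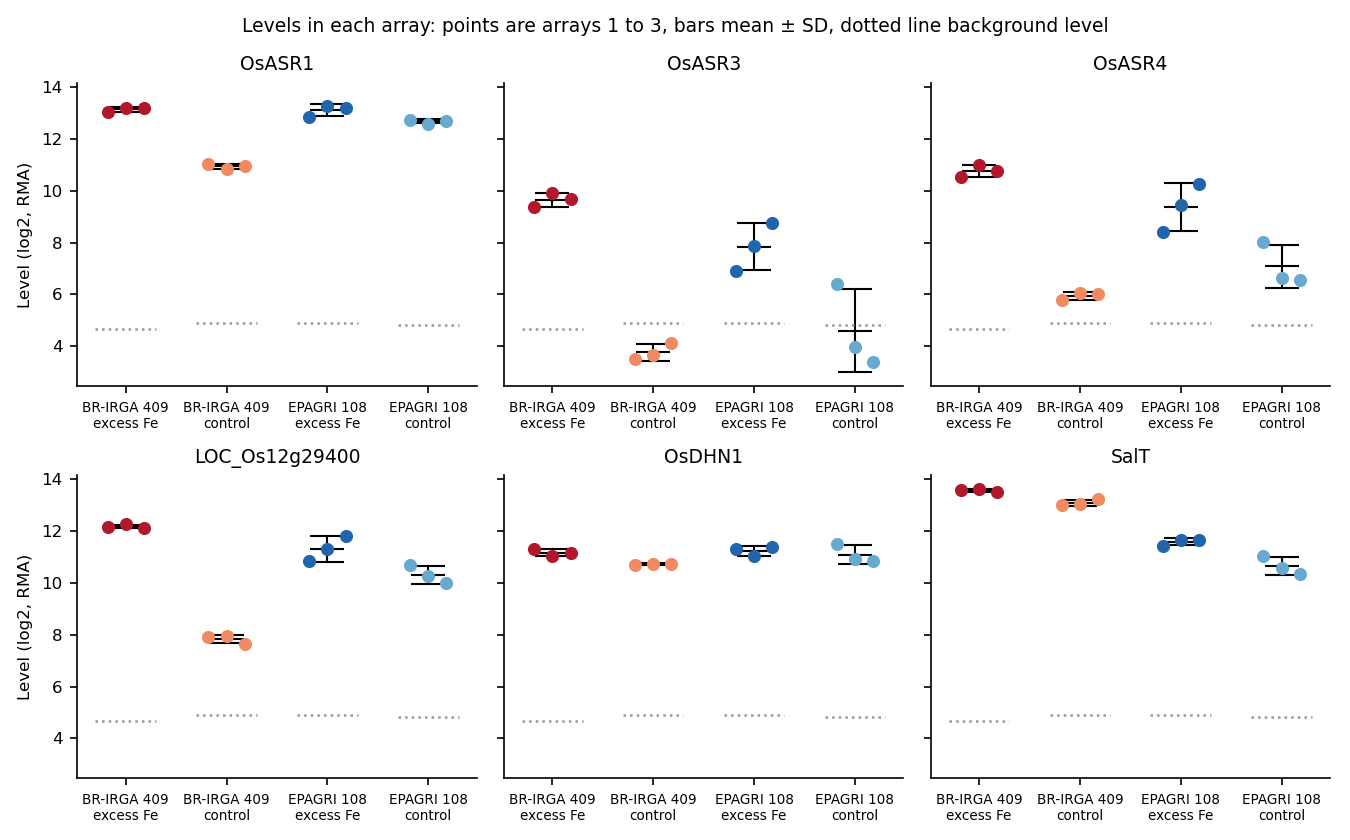
Log2 level (vertical axis, RMA) of the 5 genes and of OsASR4 on each of the 12 arrays, by cultivar and treatment. Points are arrays 1 to 3, black bars the mean ± SD and dotted lines the mean background level of each group. BR-IRGA 409 control lies lowest for OsASR1 and LOC_Os12g29400, OsASR3 spans the widest range, and SalT separates the cultivars.

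Among the ASR genes, OsASR1 (LOC_Os02g33820, on chromosome 2) had levels of 13.03, 13.18 and 13.20 in BR-IRGA 409 with excess Fe. In BR-IRGA 409 control it had 11.03, 10.83 and 10.96. The groups do not overlap, and excess Fe was 2.20 log2 units higher (SE 0.12, 4.59-fold, limma adjusted p = 1.41e-06). In EPAGRI 108 the gene had 12.84, 13.28 and 13.19 in excess Fe and 12.74, 12.59 and 12.69 in control. All excess Fe arrays again lay above all control arrays, but by 0.43 units (95% interval 0.17 to 0.70, limma adjusted p = 0.133), which was not called. The response of BR-IRGA 409 exceeded that of EPAGRI 108 by 1.77 units (SE 0.17, limma adjusted p = 5.61e-04). Ordered by level, OsASR1 averaged 13.14 ± 0.10 in BR-IRGA 409 with excess Fe, 13.10 ± 0.23 in EPAGRI 108 with excess Fe, 12.67 ± 0.08 in EPAGRI 108 control and 10.94 ± 0.10 in BR-IRGA 409 control (SD, n = 3 each). The only neighbours in this order that passed the threshold were the last pair, the controls, where BR-IRGA 409 stood 1.73 units below EPAGRI 108 (SE 0.12, limma adjusted p = 1.48e-06). In excess Fe the cultivars differed by 0.03 units (95% interval -0.23 to 0.30, limma adjusted p = 0.977).

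OsASR3 (LOC_Os01g72900, on chromosome 1) had levels of 9.36, 9.91 and 9.69 in BR-IRGA 409 with excess Fe. Its BR-IRGA 409 control arrays read 3.52, 3.65 and 4.13, under the background level on all 3. The gene was therefore at least 27.2-fold higher with excess Fe, each control array being set to its own background level. The limma test was made on the values as they stand, with a fitted difference of 5.89 units (adjusted p = 1.85e-04). In EPAGRI 108 the excess Fe arrays read 6.92, 7.86 and 8.74 and the control arrays 6.41, 3.98 and 3.39. EPAGRI 108 control replicate 1 is the only one of the 6 control arrays above background for this gene. The EPAGRI 108 groups do not overlap, and the fitted difference of 3.24 units (SE 0.63, limma adjusted p = 0.0401) was called. With the control arrays under background set to their own background level, it was 2.49 units (5.61-fold), a setting chosen after the data were seen and fitted without dim probe sets (SE 0.46, limma adjusted p = 0.0367). The call ended with same-numbered arrays of a cultivar as pairs (replicate block, adjusted p = 0.0777). It also ended without any single array other than EPAGRI 108 excess Fe replicate 1 or EPAGRI 108 control replicate 1 (adjusted p 0.0539 to 0.213), and the same held for OsASR4 (0.0524 to 0.210). Without EPAGRI 108 control replicate 1 the remaining control arrays lie under background, and the gene was at least 8.11-fold higher, with a fitted difference of 4.15 units (adjusted p = 1.17e-04). The responses of the cultivars differed by 2.64 units (95% interval 0.71 to 4.58), with a limma adjusted p of 0.740. In excess Fe, BR-IRGA 409 arrays all lay above those of EPAGRI 108, by 1.82 units (SE 0.63, limma adjusted p = 0.206). The first neighbours in the order of levels therefore did not differ at the threshold, and BR-IRGA 409 control and EPAGRI 108 control overlap.

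OsASR4 (LOC_Os01g72910) is the direct neighbour of OsASR3 in the gene order of the RefSeq assembly ASM3414082v1, and by the whole profile it was also the gene most like OsASR3 on these arrays. It had 10.52, 10.995 and 10.75 in BR-IRGA 409 with excess Fe and 5.78, 6.07 and 6.01 in control, a difference of 4.80 units (SE 0.43, 27.9-fold, limma adjusted p = 4.87e-05). On the EPAGRI 108 arrays it had 8.40, 9.46 and 10.25 with excess Fe and 8.02, 6.65 and 6.57 in control. EPAGRI 108 control replicate 1 was again the highest of its group. The difference of 2.29 units (SE 0.43, limma adjusted p = 0.0392) was called, but not with the pairs as a block (adjusted p = 0.0751). The responses of the cultivars differed by 2.51 units (SE 0.60, limma adjusted p = 0.255). Of 6 ASR genes searched for, these 3 were matched, each through the study's tables of changed genes, so that their being called in BR-IRGA 409 was fixed by how they were found. There 3 of 3 were called higher, where 1.1% of all probe sets were, and in EPAGRI 108 it was 2 of 3, where 0.283% were. The study lists OsASR3 as changed in EPAGRI 108 too, so neither count is independent evidence. Their median difference was 4.80 in BR-IRGA 409 and 2.29 in EPAGRI 108, beside -0.03 and -0.01 over all probe sets.

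LOC_Os12g29400 had levels of 12.18, 12.26 and 12.11 in BR-IRGA 409 with excess Fe, against 7.90, 7.97 and 7.66 in control. Excess Fe was 4.34 units higher (SE 0.22, 20.2-fold, limma adjusted p = 6.07e-07). In EPAGRI 108 the gene had 10.83, 11.29 and 11.82 with excess Fe and 10.68, 10.27 and 10.00 in control. These groups do not overlap either, and the difference of 0.998 units (95% interval 0.51 to 1.48) had a limma adjusted p of 0.0568. Without EPAGRI 108 control replicate 1 it was 1.18 units (adjusted p = 0.0115), still under 3-fold. The response of BR-IRGA 409 exceeded that of EPAGRI 108 by 3.34 units (SE 0.31, limma adjusted p = 4.26e-04). In excess Fe, BR-IRGA 409 was 0.87 units higher (95% interval 0.38 to 1.35, adjusted p = 0.0555), and in control it was 2.47 units lower (SE 0.22, adjusted p = 1.45e-05), both from limma. The single probe set of this gene carries the suffix that the array maker gives to sets with probes that may bind other transcripts.

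**Figure D2:**
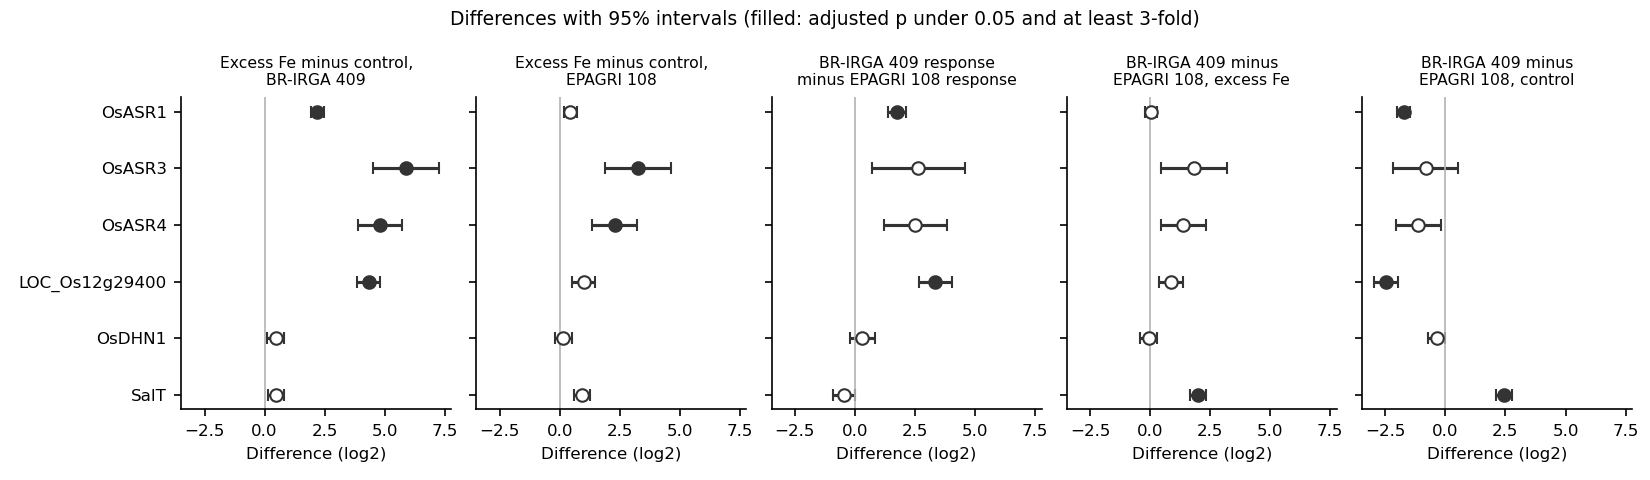
Log2 difference (horizontal axis, same scale in all panels) of each gene in 5 comparisons, with 95% intervals, and filled points where the limma adjusted p was under 0.05 at 3-fold or more. OsASR1 and LOC_Os12g29400 are filled in the comparison of responses and, with negative sign, between the controls, and SalT is filled between the cultivars in both treatments.

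For OsASR1 and LOC_Os12g29400 the lowest group was BR-IRGA 409 control, and the 9 other arrays all lay above it, whichever way the EPAGRI 108 labels run. The lowest of those 9 arrays read 12.59 for OsASR1 and 10.00 for LOC_Os12g29400, against 11.03 and 7.97 for the highest BR-IRGA 409 control array. OsDHN1 had the same arrangement by its brightest probe set only, with 10.84 against 10.75, and its other 2 probe sets did not. By the brightest probe sets 3 of the 5 genes were so arranged, against 2.04% of all probe sets. The arrangement needs a rise with excess Fe in BR-IRGA 409, by which OsASR1 and LOC_Os12g29400 were picked. The count is therefore no independent evidence. The arrangement was also found for OsASR4, for the ferritin genes OsFER1 and OsFER2, which store Fe, and for OsVIT2. OsASR4 and the ferritin genes were likewise matched through the genes the study found changed. Genes of Fe uptake were arranged the other way, as OsYSL15, which takes up Fe bound to phytosiderophores, averaged 5.56 ± 0.03 in BR-IRGA 409 with excess Fe and 12.89 ± 0.11 in control. In EPAGRI 108, OsYSL15 averaged 5.53 ± 0.78 with excess Fe and 6.47 ± 0.11 in control (SD, n = 3 each). The part of Fe status in the levels of the ABA-related genes was not tested. With the EPAGRI 108 labels exchanged, the difference of responses would be 2.63 units for OsASR1 and 5.34 for LOC_Os12g29400, both again positive. The exchange only turns the sign of the EPAGRI 108 response, which was positive for these genes and OsASR3, so larger differences were certain beforehand. For OsASR3, with arrays under background set to that level, the difference of responses was 2.275 units by the labels as given and would be 7.25 with them exchanged.

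OsDHN1, a dehydrin gene on chromosome 2, was measured by 3 probe sets, none of them called in any of the 5 comparisons. The brightest read 11.32, 11.03 and 11.17 in BR-IRGA 409 with excess Fe, against 10.68, 10.72 and 10.75 in control. The groups do not overlap, and the difference of 0.46 units (95% interval 0.09 to 0.82) had a limma adjusted p of 0.142. In EPAGRI 108 it read 11.29, 11.03 and 11.39 with excess Fe and 11.51, 10.91 and 10.84 in control, where the groups overlap (0.15 units, 95% interval -0.21 to 0.51, limma adjusted p = 0.918). A second probe set lay between 6.46 and 7.09 on all arrays and gave -0.12 units in BR-IRGA 409 and -0.19 in EPAGRI 108. The third, between 4.75 and 5.97 and so close to background, gave 0.51 and 0.24 units. The cultivars differed for the brightest probe set by -0.06 units in excess Fe and -0.37 in control, with limma adjusted p of 0.966 and 0.487.

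SalT, on chromosome 1, was called between the cultivars and not between the treatments. Its brightest probe set read 13.59, 13.61 and 13.51 in BR-IRGA 409 with excess Fe and 11.44, 11.66 and 11.67 in EPAGRI 108 with excess Fe. In control it read 13.01, 13.04 and 13.23 in BR-IRGA 409 and 11.04, 10.58 and 10.36 in EPAGRI 108. All 6 BR-IRGA 409 arrays lay above all 6 EPAGRI 108 arrays. The gap was 1.98 units in excess Fe (SE 0.15, 3.94-fold, limma adjusted p = 3.14e-06) and 2.43 units in control (SE 0.15, 5.39-fold, limma adjusted p = 4.54e-07). The second SalT probe set, of the kind that may bind other transcripts, gave 2.68 and 3.13 units (limma adjusted p = 1.99e-06 and 4.66e-07). By the study's methods, most transcripts on the array come from the japonica subspecies, while both cultivars are indica. The part of sequence differences under the probes in the gaps between cultivars, for SalT and the other genes, was not tested. SalT was the 1 gene of the 5 called higher in BR-IRGA 409 in either treatment, where 0.596% of all probe sets were called higher in excess Fe and 0.51% in control. OsASR1 and LOC_Os12g29400 were the 2 called lower in control, beside 0.604% of all probe sets, and 0 of the 5 were called lower in excess Fe, beside 0.59%. Both genes were picked by their rise in BR-IRGA 409, which favours low values on its control arrays. The count of 2 is therefore no independent evidence.

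With excess Fe, SalT was 0.48 units higher in BR-IRGA 409 (95% interval 0.15 to 0.81, limma adjusted p = 0.0869) and 0.93 units higher in EPAGRI 108 (95% interval 0.60 to 1.26, limma adjusted p = 0.0355). Excess Fe arrays lay above control arrays in both cultivars, and neither difference reached 3-fold. With the pairs as a block the adjusted p in EPAGRI 108 was 0.0712, and without EPAGRI 108 control replicate 1 it was 3.07e-04, at 1.11 units. The responses differed by -0.45 units (95% interval -0.92 to 0.02, limma adjusted p = 1).

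Of 4 green shoot markers, 1 was called higher in BR-IRGA 409 than in EPAGRI 108 in each treatment, namely CAB2R. The summed level of the markers, in which the brightest probe set weighs most, ranged from 11.40 to 11.80 in BR-IRGA 409 and from 9.91 to 10.29 in EPAGRI 108 with excess Fe, while in control it ranged from 11.78 to 12.83 in BR-IRGA 409 and from 9.91 to 11.13 in EPAGRI 108. Of these genes, 3 were above background on all arrays and RBCS1, of a small Rubisco subunit, was under it on all 12. CAB2R, of a chlorophyll-binding protein, was higher in BR-IRGA 409 by 1.80 units in excess Fe (SE 0.35, adjusted p = 0.00979) and 2.04 in control (SE 0.35, adjusted p = 0.00416), both from limma. Without CAB2R, the markers differed by 0.24 to 0.36 units in excess Fe, where the 0.24 is that of RBCS1, under background. The list medians given here include RBCS1. In control the gap was wider, with a list median of 1.105 units, and 2 of the 4 markers had a limma adjusted p under 0.05. There OsrbcS averaged 9.18 in BR-IRGA 409 and 7.89 in EPAGRI 108, and rca, of Rubisco activase, 8.29 and 7.37. With excess Fe in BR-IRGA 409 the median of the list was -0.93, and 2 of the 4 had a limma adjusted p under 0.05, both lower, with OsrbcS at -1.54 units. In EPAGRI 108 the median was -0.48 and 0 of the 4 passed. The part of shoot transcripts in the SalT difference and in the treatment differences of the 5 genes was not tested.

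Jacalin-like lectins comprised 4 genes, SalT included, of which 1 was called higher and 2 lower in BR-IRGA 409, where the list's median was -0.76 beside -0.03 over all probe sets. LOC_Os11g06570, to which the study's tables give a mannose-binding lectin domain beside another description, had 10.997, 11.51 and 11.18 with excess Fe and 6.53, 6.67 and 7.12 in control (4.45 units, SE 0.49, limma adjusted p = 2.29e-04). In EPAGRI 108 it had 7.51, 8.39 and 9.67 with excess Fe and 7.34, 6.40 and 8.22 in control, and these groups overlap. It was also 2.71 units higher in BR-IRGA 409 than in EPAGRI 108 with excess Fe (SE 0.49, limma adjusted p = 0.00622). LOC_Os06g07300, described as GOS9, was 1.99 units lower with excess Fe in BR-IRGA 409 (-1.99, SE 0.25, adjusted p = 4.84e-04), and the salt stress-induced protein gene LOC_Os01g25280 was lower as well (-2.20, SE 0.30, adjusted p = 8.07e-04), both from limma. The study picked these 3 genes by their change here, so their direction adds no independent evidence.

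**Figure D3:**
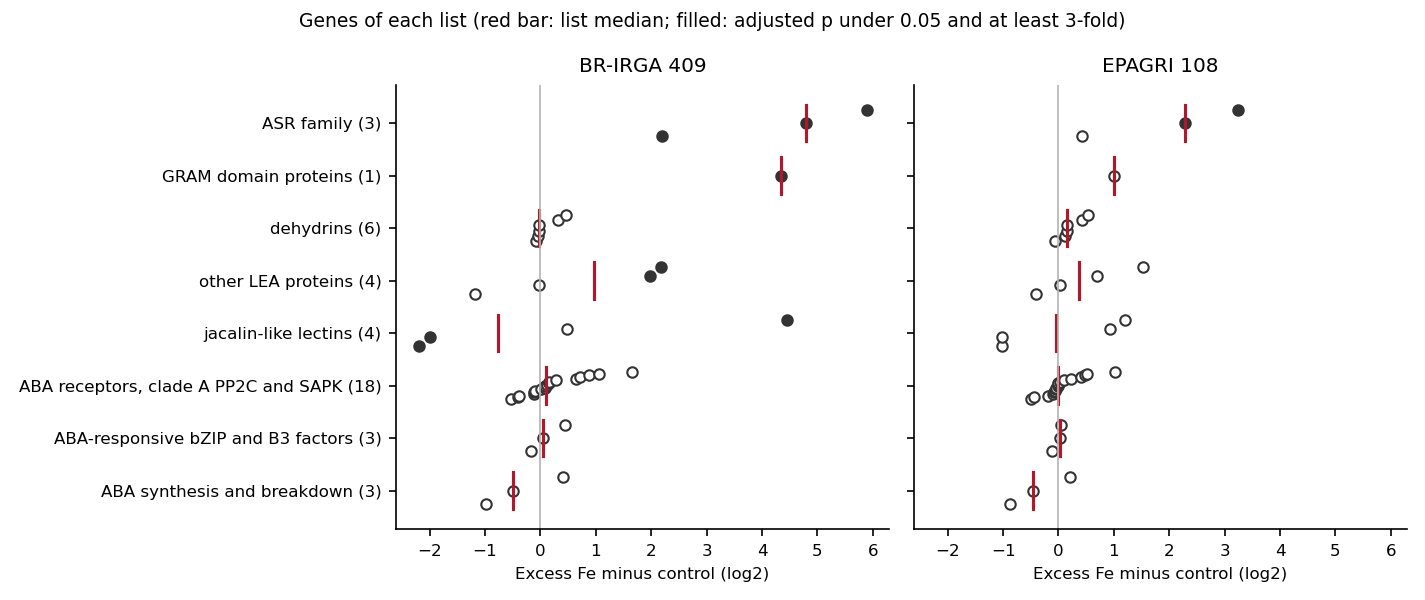
Log2 difference of excess Fe minus control (horizontal axis) for each gene of 8 lists, with BR-IRGA 409 on the left and EPAGRI 108 on the right. Red bars are list medians, filled points are called genes, and the number of genes stands beside each list. The 3 ASR genes lie at 2.20 units or more in BR-IRGA 409 and the 6 dehydrins lie between -0.08 and 0.46.

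Of 6 dehydrin genes, OsDHN1 included, 0 were called in any comparison, and their median difference was -0.02 in BR-IRGA 409 and 0.16 in EPAGRI 108. RAB21, RAB16B, RAB16C and RAB16D, which follow each other on chromosome 11 in the RefSeq order, instead differed between arrays of 1 group. RAB21, an ABA- and drought-induced dehydrin gene also known as RAB16A, read 8.53, 5.09 and 5.01 in BR-IRGA 409 with excess Fe and 7.37, 6.61 and 4.71 in control. In EPAGRI 108 it read 4.60, 4.51 and 6.95 with excess Fe and 5.17, 4.78 and 4.52 in control. The groups overlap in both cultivars, and the highest array is replicate 1 in BR-IRGA 409 with excess Fe and replicate 3 in EPAGRI 108 with excess Fe. The dehydrin gene rab25 was under background on all 12 arrays and RAB16B on 11.

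LEA genes of other classes numbered 4, and 2 were called higher in BR-IRGA 409, both picked by the study on these arrays, which leaves their direction without independent evidence. LOC_Os03g28260 had 9.50, 9.45 and 9.35 with excess Fe and 7.08, 7.49 and 7.19 in control (2.18 units, SE 0.22, limma adjusted p = 1.32e-04). Its annotation is not settled, as the study's tables give it a LEA domain while the platform pairs the probe set with an aquaporin gene. LOC_Os01g21250, with a LEA domain too, had 11.07, 11.02 and 10.68 with excess Fe and 8.81, 9.08 and 8.93 in control (1.98 units, SE 0.54, limma adjusted p = 0.0442). With single arrays left out this call held in 2 of 12 fits. It was lost without any one of the BR-IRGA 409 arrays (adjusted p 0.0878 to 0.137) and without 4 of the EPAGRI 108 arrays (0.0532 to 0.0645), and held without EPAGRI 108 control replicate 1 (2.92e-05) or 2 (0.0148). On the EPAGRI 108 arrays it had 10.95, 10.68 and 10.71 with excess Fe and 11.04, 7.99 and 8.74 in control, where replicate 1 of control is the highest of the 6. EM, an LEA gene of the seed, and LEA19 were not called, with -0.03 and -1.18 units in BR-IRGA 409.

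The matched genes that make, break down or sense ABA were not called with all 12 arrays, but the match was sparse. It held ABA1 for synthesis, ABA8OX1 and ABA8OX2 for breakdown and OsPYL11 as the only receptor. Other genes searched for, such as the NCED genes of ABA synthesis and further PYL receptors, were not matched and stay unmeasured here. Of 3 genes of ABA synthesis and breakdown 0 were called or had a limma adjusted p under 0.05 in any comparison, and the same held for the 3 transcription factor genes BZIP23, TRAB1 and OsVP1. ABA8OX1, whose enzyme breaks ABA down, averaged 7.69 ± 0.24 with excess Fe and 8.68 ± 0.93 in control in BR-IRGA 409 (SD, n = 3 each), and the groups overlap. Of 18 genes of receptors, clade A PP2C and SAPK kinases, 0 were called, and 3 had an adjusted p under 0.05 in BR-IRGA 409, all with higher levels in excess Fe, where 7.64% of all probe sets had one and 4.24% with a higher level. OsPP2C09, of a phosphatase that damps the ABA signal, averaged 9.37 ± 0.16 with excess Fe and 8.31 ± 0.13 in control (1.07 units, SE 0.17, limma adjusted p = 0.00193). The kinase genes OsSAPK6 and OsSAPK10 were 0.71 and 0.65 units higher (limma adjusted p = 0.00324 and 0.0144). The list's median was 0.11 in BR-IRGA 409 and -0.01 in EPAGRI 108.

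One array changed the reading of several of these genes. EPAGRI 108 control replicate 1 stood at least 1 unit above the next array of its group for 5 of the 42 list genes, against 1.66% of all probe sets. These were OsASR3, OsASR4, LOC_Os01g21250 and the clade A phosphatase genes OsPP2C30 and PP2C68. OsPP2C30 read 7.47, 6.86 and 6.90 on EPAGRI 108 arrays with excess Fe and 7.85, 5.33 and 4.99 in control. In BR-IRGA 409 it read 7.34, 7.42 and 7.07 with excess Fe and 5.73, 5.74 and 5.42 in control, without overlap. With all 12 arrays its difference in BR-IRGA 409 was 1.65 units (SE 0.54, limma adjusted p = 0.0982), and without that array, whose spread enters the common fit, the limma adjusted p was 1.01e-04. Without it OsPP2C30 was also called in EPAGRI 108 (1.92 units, adjusted p = 1.63e-04), as was LOC_Os01g21250 (2.41 units, adjusted p = 4.49e-05), and the number of the 5 genes called stayed at 3 in BR-IRGA 409 and 1 in EPAGRI 108.

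**Figure D4:**
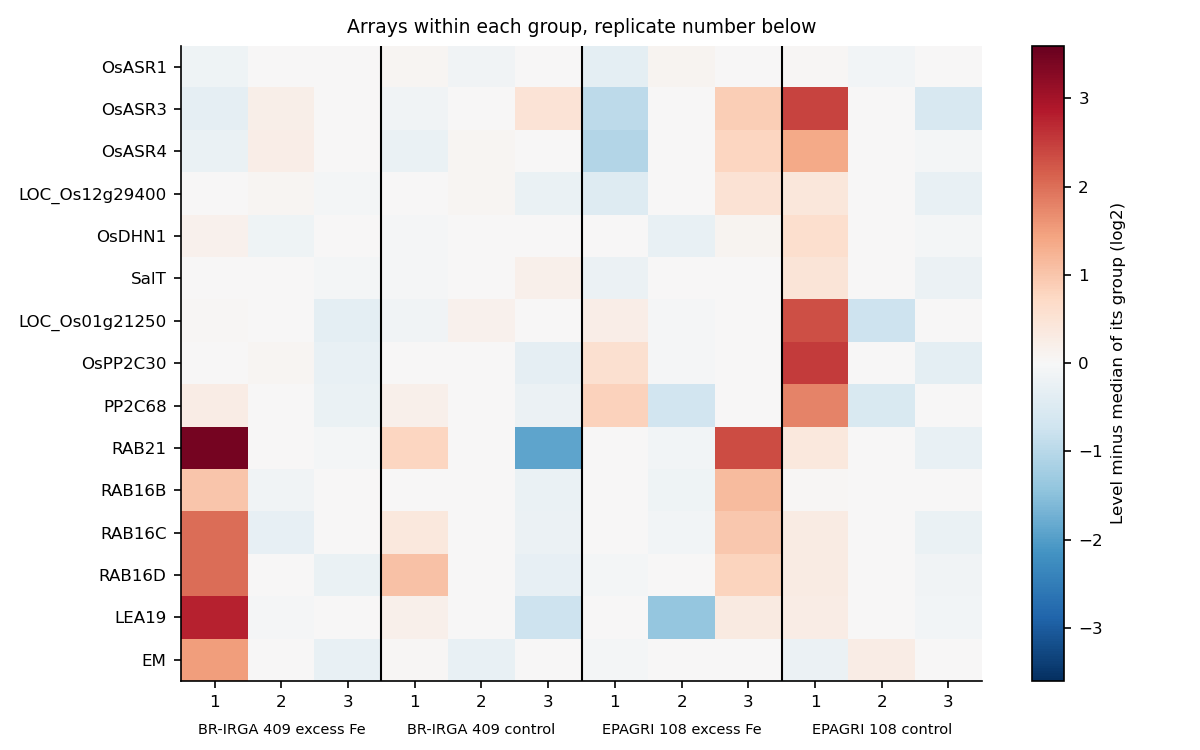
Log2 level of 15 genes on each array minus the median of its group (colour scale), with groups separated by black lines and replicate numbers on the horizontal axis. EPAGRI 108 control replicate 1 is high for OsASR3, OsASR4, LOC_Os01g21250, OsPP2C30 and PP2C68, and BR-IRGA 409 excess Fe replicate 1 is high for the RAB16 genes, RAB21, LEA19 and EM.

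A different set stood apart on BR-IRGA 409 excess Fe replicate 1, where RAB21, RAB16B, RAB16C, RAB16D, LEA19 and EM, 6 of the 42 genes against 0.159% of all probe sets, lay at least 1 unit above the next array of the group. RAB16B read 4.83 there, just above the background level of 4.68, and its gap lies mostly under background. On that array OsASR1, OsASR3 and OsASR4 were the lowest of their group instead. On EPAGRI 108 excess Fe replicate 3, genes of both sets were the highest of their group, as RAB21 (6.95), OsASR3 (8.74) and OsASR4 (10.25). There RAB21, RAB16B (under background) and LOC_Os11g06570 lay at least 1 unit above the next array, 3 of the 42 genes against 0.0961% of all probe sets. The plot of arrays within groups therefore shows the 2 sets of genes on different arrays in part only.

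The genes most like each of the 5 were sought by the root-mean-square distance between log2 levels over the 12 arrays, after taking off each gene's mean. For OsASR1 they were LOC4344197 (distance 0.20) and LOC_Os06g47640, described as a polcalcin (0.24), beside 0.91 units of root-mean-square deviation of OsASR1 from its own mean. OsASR3 had OsASR4 (0.64) and LOC_Os06g09870, of a glycine-rich cell wall protein (0.74), beside 2.51 for itself. LOC_Os06g09870 was 4.49 units higher with excess Fe in BR-IRGA 409 (SE 0.45, limma adjusted p = 1.18e-04). For LOC_Os12g29400 they were LOC9267937 (0.36) and LOC_Os01g67010 (0.39), both without a described function here, beside 1.64. LOC9267937 averaged 10.37 in BR-IRGA 409 with excess Fe, 5.83 in BR-IRGA 409 control, 9.32 in EPAGRI 108 with excess Fe and 8.37 in EPAGRI 108 control. SalT had LOC4346816 and LOC4326165 (both 0.27), beside 1.17, and OsDHN1 had LOC4347416 (0.09) and LOC4332477 (0.11), beside 0.27. A gene as flat as OsDHN1 is close to many others by this measure.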

How the data were processed

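The authors deposited 1 table of log2 values per probe set, which they had obtained with the RMA algorithm of ArrayAssist after reading the scans in GCOS. RMA subtracts background, forces the arrays to a common distribution and condenses the probes of a set to 1 value, so that a level is relative to its whole array. The methods also speak of a constant added to steady the variance. Its size is not given, and it could shrink changes of dim genes. It was not 16 on the scale of these values, whose array minima (1.51 to 1.74) lie under 4, the log2 of 16.

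Of 57381 probe sets, 123 controls were set aside. Names came from the platform annotation (22436 probe sets with 1 gene, 95 with several, 34727 with none listed), from RefSeq and from the loci in the study's tables. The folds and p-values in those tables were not used. The background level on an array was the brightest of 23 control probe sets with no target in rice. Where no array of a group exceeded it, folds are given as "at least".

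A linear model with a mean for each of the 4 groups was fitted to the 12 arrays in limma (3.58.1, R 4.3.3), leaving 8 degrees of freedom, and p-values were adjusted by Benjamini-Hochberg over 57258 probe sets. The code was tested on simulated data. The t-test of the study's methods, with its 3-fold threshold, was run as an alternative beside other priors, fold thresholds, probe sets and sample sets. Plots used matplotlib 3.10.9 in Python 3.11.15. The number of arrays limits the precision.

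To see whether replicate numbers pair the arrays, residuals around the group means were correlated. Within a cultivar 6 of 6 same-numbered pairs exceeded 0.1 (0.108 to 0.490). Of 12 pairs of unlike number 4 exceeded 0.1 as well, and they ranged from -0.39 to 0.31. The main fit used no pairs. Equal numbers were treated as pairs within a cultivar only in an alternative fit with a replicate block, although the labels state none.

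Genes, lists and tests were chosen with earlier results of these data known. Text names were given to the 5 genes with all their probe sets, the ASR genes, in each list up to 4 genes called or with an adjusted p under 0.05, and the 2 genes most like each of the 5. OsPP2C30, PP2C68, the RAB16 genes, RAB21, rab25, EM, LEA19, ABA1, ABA8OX1, ABA8OX2, OsPYL11, BZIP23, TRAB1, OsVP1 and the marker genes were chosen after their values were seen. A list gene with several probe sets is represented by the brightest.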

Additional observations from a re-analysis of the deposited data

Results flagged for a closer look

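The responses of the cultivars differed for 2 of the genes described by the limma test of the difference itself. For OsASR1 the response of BR-IRGA 409 exceeded that of EPAGRI 108 by 1.766 log2 units (adjusted p = 5.61e-04). For LOC_Os12g29400 it did so by 3.339 log2 units (adjusted p = 4.26e-04). The sizes depend on the EPAGRI 108 labels, and with those labels exchanged both were positive and called as well (2.63 and 5.34 units). The exchange only turns the sign of the EPAGRI 108 response, which was positive for both genes. A larger positive difference was therefore certain beforehand. Over all probe sets 0.0856% were called in this direction and 0.0541% in the other. The study had picked both genes by their rise in BR-IRGA 409 on these arrays, which favours a positive difference. Their number beside that share is therefore no independent evidence. With single arrays left out, the difference ranged from 1.64 to 1.85 units for OsASR1 and from 3.10 to 3.59 for LOC_Os12g29400, and both calls held in 12 of 12 fits.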

How the results depend on the processing

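The number of the 5 genes called was the same under all alternatives in BR-IRGA 409 (3), for the difference of responses (2) and between the controls (3). In EPAGRI 108 the 1 call, OsASR3, was borderline. The count was 0 with the methods' t-test after adjustment, with only the 2 groups compared, with 16 added to the linear values, with the robust and trended prior and with the replicate block within each cultivar, and it ranged from 0 to 1 when single arrays were left out. It stayed at 1 only without EPAGRI 108 excess Fe replicate 1 or EPAGRI 108 control replicate 1. Between cultivars in excess Fe the count was 2 with the methods' t-test unadjusted, with only the 2 groups compared and with levels under background set to it and dim probe sets left out (chosen after the data were seen, OsASR3 adjusted p = 0.0434), and 1 to 2 with single arrays left out. The 2 was found without EPAGRI 108 control replicate 1, where OsASR3 had a limma adjusted p of 0.0121. Over all probe sets, the EPAGRI 108 calls numbered 162 higher and 13 lower, against 457 and 36 without EPAGRI 108 control replicate 1, 76 and 7 with the robust and trended prior, and 0 in limma with the replicate block within each cultivar, where 8213 had an unadjusted p under 0.05. With the replicate block over all groups, whose 18 same-numbered pairs correlate over 0.1 in 15, they numbered 186 and 17, and OsASR3 was called (adjusted p = 0.0469). The paired analysis with the replicate block ended the EPAGRI 108 calls given with it above and changed no other call of the 5 genes.

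Signs that turned belonged to differences that were not called. Between cultivars in excess Fe, BR-IRGA 409 minus EPAGRI 108 ranged from -0.097 (without EPAGRI 108 excess Fe replicate 1) to 0.120 for OsASR1 and from -0.165 to 0.0135 for OsDHN1 as single arrays were left out, with 0.0096 without BR-IRGA 409 excess Fe replicate 2. In control the same difference ranged from -1.43 to 0.082 for OsASR3, the highest without EPAGRI 108 control replicate 1. A second OsDHN1 probe set gave -0.119 in BR-IRGA 409 and -0.191 in EPAGRI 108. Levels under the background level, as for OsASR3 in BR-IRGA 409 control, bound a fold from below only.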
